A study of Homo sapiens with 26 samples.

Results

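IGF2BP1 is an RNA-binding protein whose RRM and KH domains are joined by disordered linkers, and the comparison described here set a substitution in one linker against a substitution in the other. In S181E a serine of the first linker, and in Y396E a tyrosine of the second linker, is replaced by glutamate, whose negative charge mimics a phosphate. All Y396E libraries that could be used (3 control, 2 arsenite) were compared with all S181E libraries (3 control, 3 arsenite), which made 11 of the 26 libraries of the series, with treatment as a covariate. The question was how close the transcriptomes of the mutants were and how large a difference the data still allow.

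Both mutants were expressed as mCherry fusions from a lentivirus in HCT116, a human colorectal carcinoma line, in which IGF2BP2 and IGF2BP3 had been knocked out. Control dishes received PBS and arsenite dishes 500 µM sodium arsenite for 2 h, and poly(A) RNA was sequenced from clarified lysate. Each mutant was 1 sorted population with a narrow gate on mCherry, and its replicates were dishes of that population that had been plated independently. The substitution and the history of the population therefore cannot be told apart, and p-values measure the spread between dishes. WT and RQ populations (RQ has arginines of the first linker replaced by glutamine) give the scale against which the mutants are set.

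IGF2BP1 binds mRNAs of growth and development genes and is known to protect many of them from decay. Its RRM and KH domains bind the RNA. In vitro, the study found that the first linker also binds RNA weakly. The second linker made low-affinity contacts with the folded domains. Sodium arsenite is an oxidative stressor that stalls translation, sends mRNAs and RNA-binding proteins such as IGF2BP1 into stress granules, and induces heat shock, metal and oxidative stress genes.

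The mutated codons lie in different exons of the gene. The reference bases around each are printed to show the 2 sites, with the codon that the substitution replaces in capitals, on the + strand of hg38 in GENCODE release 44. The S181 codon lies in exon 6, in the window chr17:49038295-49038321, and the Y396 codon in exon 10, in the window chr17:49043524-49043550, of a transcript that encodes 577 residues. The mutant bases of the transgene were not read here, and a count per gene does not show which mutant is expressed.
S181 codon: ccccgccagggcTCAcctgtggcagcg
Y396 codon: ggggctgctcccTATagctcctttatg

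The third Y396E arsenite library was left out of the comparison. It held 13897 genes with counts, against at least 20850 in every other library, although its total of 37961265 counts was within the range of the others (22508145 to 50834401). Only 534 of its genes had 1 to 9 counts, against at least 6150 elsewhere. The root mean square (RMS) difference of its log2 CPM (counts scaled to the library total) from the S181E arsenite libraries was 0.391 to 0.394, and from the 2 other Y396E arsenite libraries 0.39 and 0.391. Results with this library included are given where they differ. In all Y396E and S181E libraries the summed level of 9 colorectal epithelial markers was 3110 to 5270 CPM, against at most 10.8 CPM for 6 fibroblast, 1.07 for 6 leukocyte and 0.882 for 4 endothelial markers. Of the 9 epithelial markers, 6 had more than 10 CPM in at least 6 of the 11 libraries compared, and the others did not.

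Y396E and S181E libraries were about as far from each other as replicates of the same mutant. In control cells the RMS difference of log2 CPM was 0.112 to 0.14 between a Y396E and an S181E library (9 pairs), 0.0985 to 0.118 between S181E replicates and 0.118 to 0.141 between Y396E replicates. In arsenite it was 0.0918 to 0.124 between the mutants (6 pairs), 0.1 to 0.106 within S181E and 0.0991 for the single Y396E pair. Both mutants were further from WT. S181E and WT libraries differed by 0.288 to 0.384 in control and 0.232 to 0.255 in arsenite, and Y396E and WT libraries by 0.272 to 0.387 and 0.245 to 0.267. RQ and WT differed by 0.145 to 0.213 in control and 0.127 to 0.168 in arsenite, where WT replicates differed by 0.122 to 0.196 and 0.0888 to 0.096.

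**Figure D1:**
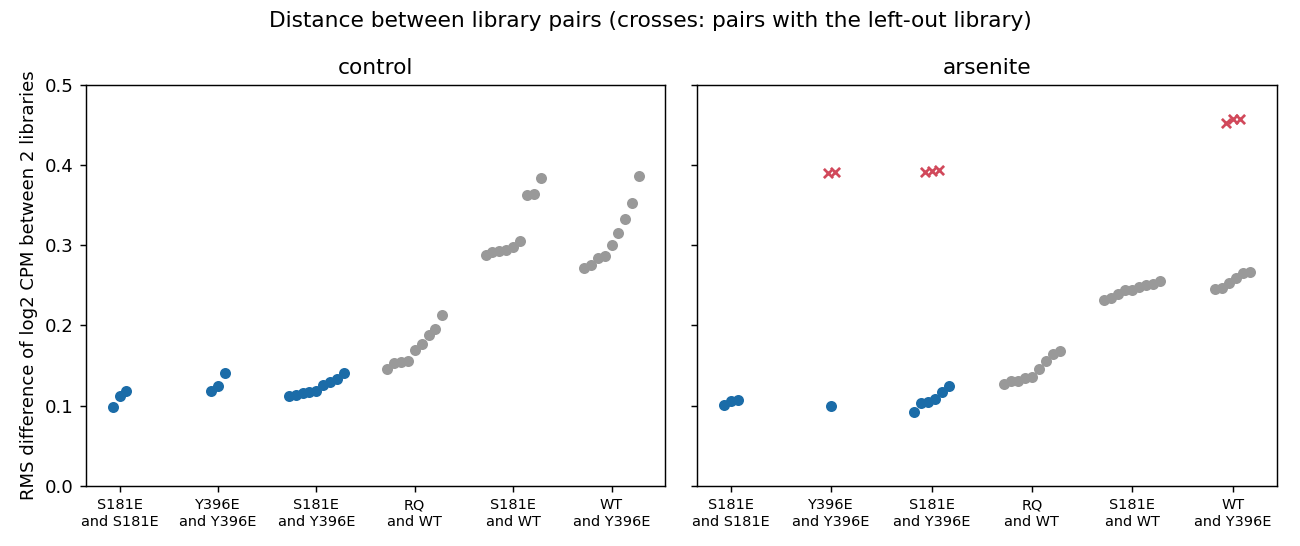
Each point is 1 pair of libraries of the same treatment, and the vertical axis is the RMS difference of their log2 CPM. Pairs of a Y396E with an S181E library sit at 0.0918 to 0.14, beside pairs within a mutant, and pairs of either mutant with WT at 0.232 to 0.387. Crosses are pairs with the left-out library.

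Few genes differed between the mutants. Of 8825 protein-coding genes with more than 10 CPM in at least 6 of the 11 libraries, 6 were called, 4 higher and 2 lower in Y396E (0.068% of genes tested). Called means a Benjamini-Hochberg adjusted p under 0.05 in the quasi-likelihood test of edgeR together with a change of more than 1.2-fold (0.26 in log2 units). Without the fold threshold 86 genes passed (0.975%), 47 higher and 39 lower, and 1182 (13.4%) had an unadjusted p under 0.05. Scaling by library totals in place of TMM (trimmed mean of M-values) gave 91 such genes, of which 14 (15.4%) were higher, against 54.7% in the TMM fit, with the median of all genes moved from 0.00 to -0.03. The number called was 3 without S181E control replicate 2, 10 without S181E control replicate 1 and 21 without Y396E control replicate 3. The number past the adjusted p moved by over 1.5 times whichever library was left out, from 21 without S181E arsenite replicate 3 to 226 without Y396E control replicate 3. With the left-out Y396E arsenite library included, 1 gene, ADIRF, passed either criterion.

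Differences among the other populations were larger when fitted in the same way. RQ minus WT gave 186 called genes (2.05% of 9082), S181E minus WT 1676 (18.4% of 9122) and Y396E minus WT 1560 (17.8% of 8759). These comparisons share the WT libraries. Those of S181E and Y396E with WT also share libraries with the comparison of the mutants, and RQ minus WT does not. The median absolute log2 difference was 0.04 for Y396E minus S181E, 0.06 for RQ minus WT, and 0.13 for each phosphomimetic mutant minus WT. The 99th percentile was 0.18 for Y396E minus S181E, 0.33 for RQ minus WT, 0.86 for S181E minus WT and 0.89 for Y396E minus WT.

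**Figure D2:**
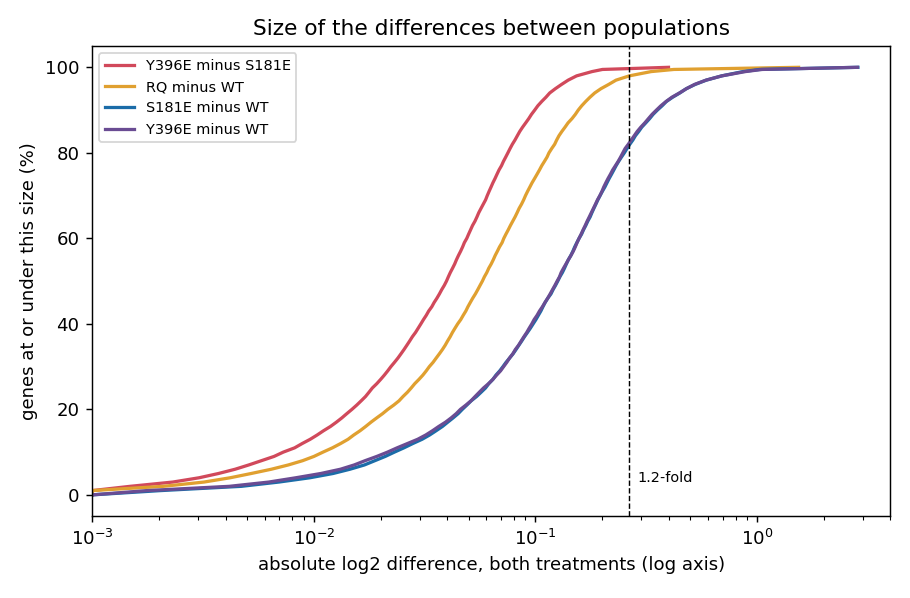
The horizontal axis is the absolute log2 difference over both treatments (log axis) and the vertical axis the percent of tested genes at or under that size. The curve of Y396E minus S181E lies to the left of the other 3 and ends at 0.40, and the curves of the mutants against WT, which share WT libraries, lie nearly on each other.

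The bound on a difference was narrow for genes above the CPM minimum. The standard error of a log2 difference had a median of 0.04, and the 95% interval reached a median of 0.0851 to each side. For 8615 of the 8825 genes (97.6%) the whole interval lay within 1.2-fold, and for 5057 within 1.1-fold. The interval of every tested gene lay within 1.5-fold, and the outermost bound was 1.44-fold, for KRT7. An equivalence test, in which a gene passes when both 1-sided tests against 1.2-fold are significant, gave 8698 genes (98.6%) with a Benjamini-Hochberg adjusted p under 0.05. These intervals are per gene and are not widened for the number of genes. With the left-out Y396E arsenite library included, 7234 of 9122 intervals lay within 1.2-fold.

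The bound depended on the level of the gene. When genes were split by mean level into 4 bins of equal size, in the lowest bin (8.47 to 22.6 CPM) the median half-width was 0.121 and 92.5% of intervals lay within 1.2-fold. In the other bins the half-width was 0.0935, 0.0769 and 0.065, and at least 99% lay within 1.2-fold. When genes with more than 1 CPM in at least 3 libraries were tested, 9670 of 11850 intervals (81.6%) lay within 1.2-fold, 299 reached beyond 1.5-fold and 9 beyond 2-fold. With that filter 12 genes were called, so some larger differences at low level were detected, while the bound on the others was wider.

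The transgene itself differed little. IGF2BP1 had 17, 16.2 and 19 CPM in the S181E control libraries and 14.2, 15.4 and 16.4 CPM in the Y396E control libraries. In arsenite it had 41, 41.8 and 40.7 CPM in S181E and 42.5 and 40.2 CPM in Y396E. The ranges of the mutants overlapped in both treatments. The log2 difference was -0.08 ± 0.05 (SE), and its interval ran from 0.879-fold to 1.01-fold. The WT libraries lay below both mutants, at 9.87 to 13.7 CPM in control and 26.6 to 28.6 in arsenite, and the single parental libraries at 0.323 and 0.614 CPM. Transcripts of the disrupted paralogs were still counted. IGF2BP2 was lower in Y396E by 0.14 ± 0.04 on the log2 scale (adjusted p = 0.0475), with each of the 5 Y396E libraries below the S181E libraries of its treatment, but it passed without only 1 of the 11 libraries in turn. IGF2BP3 had a log2 difference of 0.03 ± 0.03.

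HMGA2, a chromatin protein of embryonic and tumour growth and a well-known IGF2BP1 target, was lower in Y396E. It had 290, 286 and 251 CPM in the S181E control libraries and 233, 240 and 241 CPM in the Y396E control libraries. In arsenite it had 155, 154 and 158 CPM in S181E and 132 and 136 CPM in Y396E. The groups did not overlap in either treatment, and the log2 difference was -0.21 ± 0.03 (0.863-fold, interval 0.824 to 0.903, edgeR quasi-likelihood adjusted p = 3.07e-04). Leaving out 1 library gave -0.25 to -0.19 with an adjusted p of at most 0.00611, and including the left-out library gave -0.23 with an adjusted p of 0.0502. Against WT, in fits that share these libraries, HMGA2 stood at -0.29 ± 0.05 in Y396E and at -0.07 ± 0.05 in S181E.

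HMGA2 was the 1 gene to pass among 17 tested RNAs of a list of IGF2BP1 targets, where 0.975% of all tested genes did. The median log2 difference of the list was -0.02, against 0.00 over all tested genes. The list holds RNAs that the study named from these samples, so its count is not independent evidence. MYC, the growth regulator whose mRNA IGF2BP1 shields, had an interval of 0.953-fold to 1.05-fold. ACTB, the cytoskeletal actin whose mRNA gave the family its zipcode-binding name, had 0.95-fold to 1.05-fold. The interval was 0.948-fold to 1.03-fold for PABPC1, the poly(A)-binding protein. Of the 17 intervals 16 lay within 1.2-fold.

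Among the 4 genes called higher in Y396E, ADIRF (adipogenesis regulatory factor, chromosome 10, 86968482 to 86970915 in hg38) had the smallest p. It had 319, 322 and 324 CPM in S181E control, 402, 376 and 369 CPM in Y396E control, 234, 255 and 230 CPM in S181E arsenite and 303 and 314 CPM in Y396E arsenite. The groups did not overlap in either treatment, and the log2 difference was 0.30 ± 0.03 (interval 1.18-fold to 1.29-fold, adjusted p = 3.91e-07). It was called whichever single library was left out, and with the left-out library included (adjusted p = 0.00936). SNCG (gamma-synuclein) lies next to it on chromosome 10 (86958599 to 86963258, same strand) and was higher by 0.21 ± 0.03, with 59.9 to 63.6 CPM in S181E control and 69.5 to 71 CPM in Y396E control.

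KRT7, a keratin of simple epithelia, had the largest difference. It had 24.9, 21.9 and 22.6 CPM in S181E control and 29.1, 26.2 and 31.2 CPM in Y396E control. In arsenite it had 14.3, 10.1 and 13.3 CPM in S181E and 19.1 and 17.1 CPM in Y396E. Every Y396E library was above every S181E library of its treatment. The log2 difference was 0.40 ± 0.06 (interval 1.2-fold to 1.44-fold, adjusted p = 4.37e-04). KRT7 also stood above WT in both mutants, by 0.83 ± 0.13 in S181E and 1.21 ± 0.15 in Y396E, in fits that share these libraries.

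HSPG2 encodes perlecan, a heparan sulfate proteoglycan of basement membranes. It had 17.8, 17.3 and 20.5 CPM in S181E control and 25.1, 24.8 and 20.4 CPM in Y396E control, which overlapped through the last library. In arsenite it had 66.7, 65.9 and 64.1 CPM in S181E and 75.5 and 78.1 CPM in Y396E, with no overlap. Of all tested genes 26.7% had no overlap in arsenite and 12.2% in control. The log2 difference of HSPG2 was 0.27 ± 0.05 (adjusted p = 0.00152). CCDC92, a coiled-coil protein, had 14.1, 13.5 and 13.2 CPM in S181E control and 16.2, 15.9 and 15.3 CPM in Y396E control, and 8.12 to 8.89 against 11.2 and 10.6 CPM in arsenite. Its log2 difference was 0.26 ± 0.06 (adjusted p = 0.0265). HSPG2 was called without 7 of the 11 libraries in turn and CCDC92 without 4 of them.

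The genes called lower in Y396E were PDE4B and IRS2. PDE4B, a phosphodiesterase that degrades cAMP, had 27.9, 29.1 and 26 CPM in S181E control and 20.6, 22.9 and 23.2 CPM in Y396E control. In arsenite it had 28.6, 33.2 and 31 CPM in S181E and 22.3 and 25.6 CPM in Y396E, so that the groups did not overlap. Its log2 difference was -0.34 ± 0.05 (interval 0.737-fold to 0.852-fold, adjusted p = 3.07e-04). Both mutants lay well below WT, by -1.31 ± 0.07 in S181E and -1.62 ± 0.08 in Y396E. IRS2, an adaptor of the insulin and IGF receptors, had 13.2, 14 and 14.7 CPM in S181E control and 11.2, 10.7 and 10.6 CPM in Y396E control. In arsenite the groups overlapped, with 11.6, 9.34 and 10.4 against 8.2 and 9.51 CPM. The log2 difference was -0.31 ± 0.07 (adjusted p = 0.0166), and the gene was called without 7 of the 11 libraries in turn. In the left-out Y396E arsenite library IRS2 had 17 CPM, and with that library its log2 difference was -0.11.

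**Figure D3:**
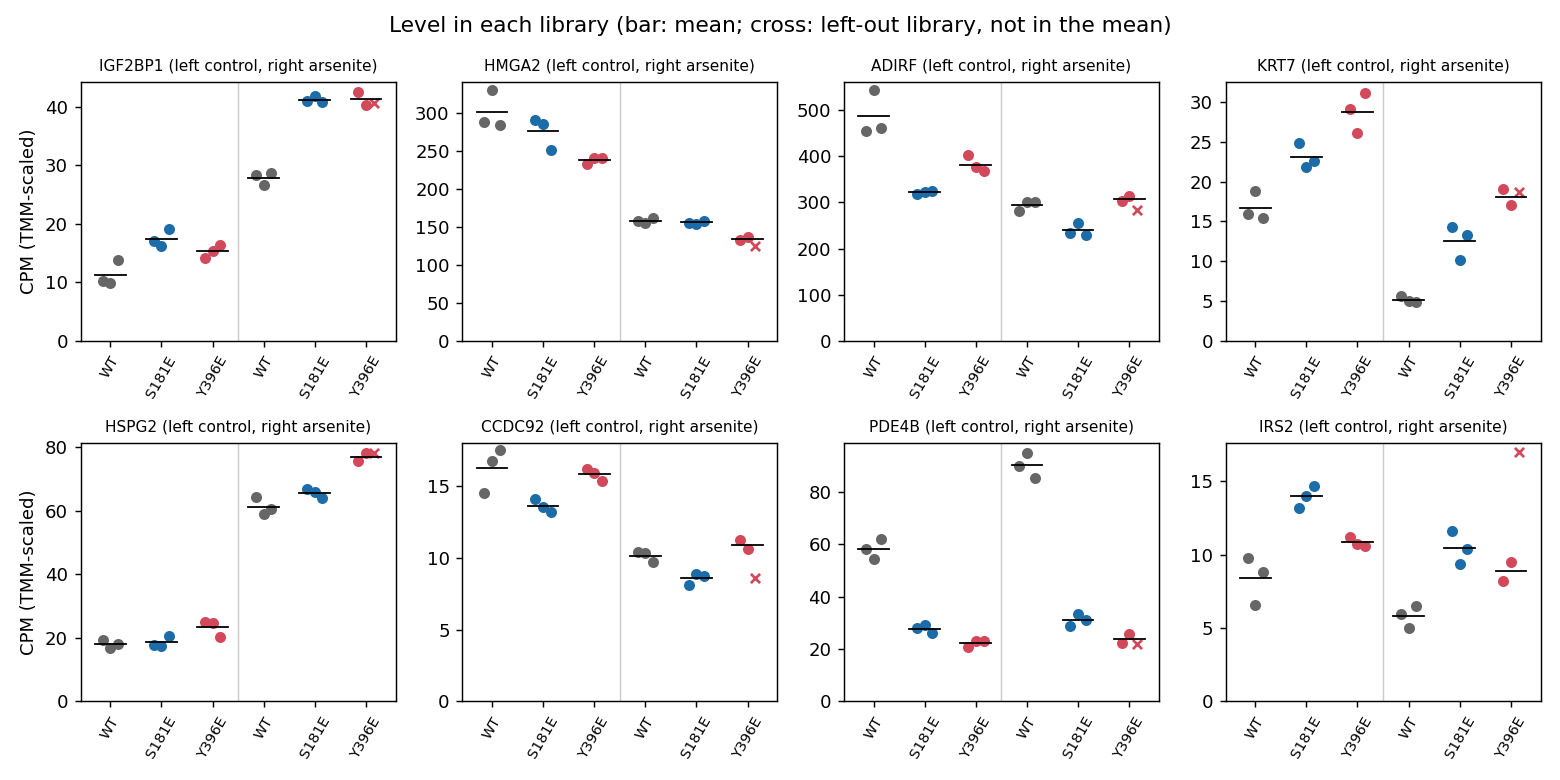
TMM-scaled CPM of IGF2BP1, HMGA2 and the 6 called genes in each WT, S181E and Y396E library, with control on the left and arsenite on the right of each panel and bars at the group means. ADIRF, KRT7 and CCDC92 lie higher and HMGA2 and PDE4B lower in every Y396E library used than in every S181E library of the treatment. The cross is the left-out library.

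The next genes by p stayed under the 1.2-fold threshold but passed the adjusted p without any 1 of the 11 libraries. Those higher in Y396E included F3, which encodes tissue factor, the starter of coagulation, BDNF, a neurotrophin, RGS2, a regulator of G protein signalling, and TJP3, a tight junction scaffold. F3 had 262 to 293 CPM in S181E control and 303 to 324 CPM in Y396E control, and 55 to 55.3 against 64.5 and 68.8 CPM in arsenite, which did not overlap (log2 difference 0.22 ± 0.03). The log2 difference was 0.20 ± 0.03 for BDNF, 0.24 ± 0.04 for RGS2 and 0.25 ± 0.05 for TJP3, each without overlap in either treatment. RGS2 and TJP3 met the fold threshold without 2 and 3 of the 11 libraries in turn.

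Those lower in Y396E included ADAM19, a cell-surface metalloprotease (-0.20 ± 0.04), CDK6, a kinase of the G1 phase (-0.24 ± 0.05), and TIMELESS, which protects replication forks (-0.16 ± 0.03). CDK6 had 41.1 to 43.7 CPM in S181E control and 32.4 to 36.7 CPM in Y396E control, and 23.6 to 27.1 against 22.4 and 23.1 CPM in arsenite, with no overlap. Against WT, CDK6 was higher in both mutants, by 0.93 ± 0.07 in S181E and 0.71 ± 0.06 in Y396E. SMARCC1, a subunit of SWI/SNF chromatin remodellers, and RBBP8, a DNA end resection factor, were lower by 0.15 ± 0.03 each but lost the adjusted p without 2 and 3 of the 11 libraries, respectively. With the left-out Y396E arsenite library included, the log2 differences of F3, RGS2, TJP3 and ADAM19 were 0.28, 0.26, 0.23 and -0.28, with adjusted p of 0.176, 0.117, 0.188 and 0.395. Those of BDNF and TIMELESS were 0.22 and -0.22, with adjusted p of 0.0502 and 0.286. CDK6 had 28.6 CPM in the left-out library, above the S181E arsenite libraries. With that library included its log2 difference was -0.17 with an adjusted p of 0.584.

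**Figure D4:**
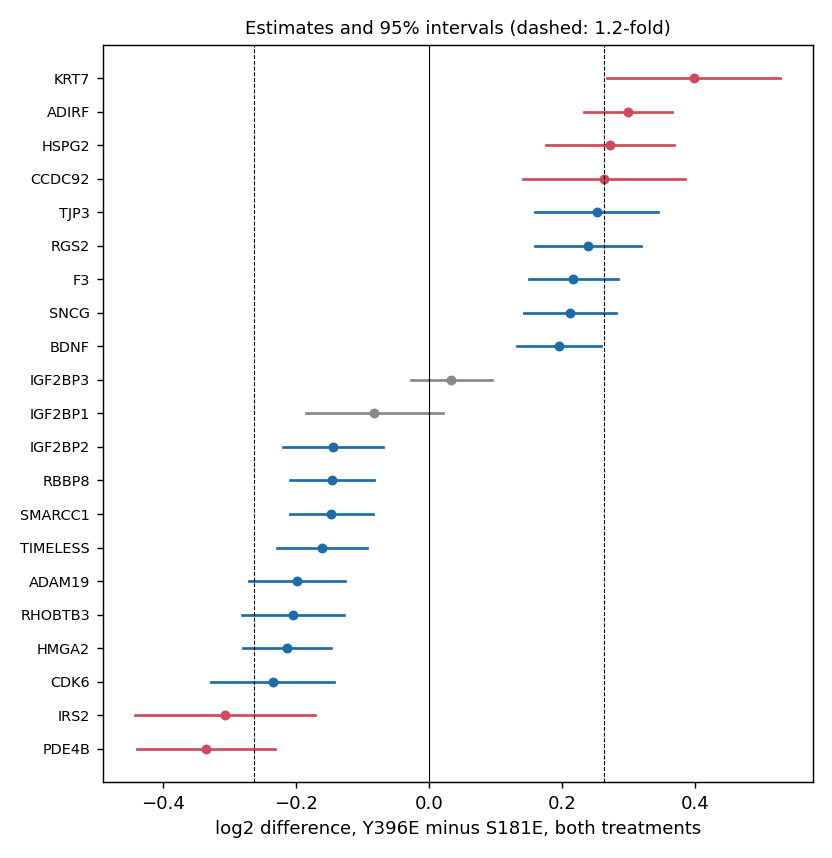
Log2 differences (Y396E minus S181E, both treatments) with 95% intervals for the called genes (red), the 8 genes of smallest p in each direction (blue where only the adjusted p passed) and IGF2BP1 with its paralogs (grey where it did not pass). KRT7 reaches furthest, to 1.44-fold, and the dashed lines mark 1.2-fold.

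Within a single treatment fewer genes passed. In control cells 1 gene was called (0.0113%), TOPBP1, an activator of the replication checkpoint, which was named after its values were seen. It was lower in Y396E, at 51.8 ± 3.77 CPM against 63.0 ± 1.28 in S181E (SD, n = 3). The log2 difference of TOPBP1 was -0.29 ± 0.05 (edgeR quasi-likelihood adjusted p = 0.0214) in control and -0.01 ± 0.06 in arsenite. In arsenite 3 genes were called (0.034%), ADIRF, KRT7 and F3, all higher in Y396E. An unadjusted p under 0.05 was reached by 818 genes in control (9.27%) and 600 in arsenite (6.8%). The count in control ranged from 0 to 41 when 1 library was left out, with 41 without Y396E control replicate 3, 3 without S181E control replicate 3 and 0 without any 1 of 7 libraries. In arsenite it fell to 1 without Y396E arsenite replicate 1, S181E control replicate 2 or S181E arsenite replicate 3.

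No gene passed a test of whether the difference between the mutants changed with arsenite (0 of 8825, 0%). By edgeR's quasi-likelihood test 235 genes (2.66%) had an unadjusted p under 0.05 for this interaction, and by DESeq2 and limma-voom, which also called 0, 179 and 245. TOPBP1 had an interaction of 0.27 ± 0.08 and did not pass (unadjusted p = 0.00123). The bound was wider here, with a median half-width of 0.173, and 5589 intervals (63.3%) lay within 1.2-fold. Without Y396E control replicate 3 the interaction had 1 called gene.

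Control and arsenite libraries share no sample, so the log2 differences of the treatments come from separate libraries. Their p-values came from the same fit to all 11 libraries and share each gene's estimate of spread. A gene of low spread can therefore have a small p in both treatments. The percentages with a p under 0.05 are for that reason not independent evidence. Of 42 genes with an unadjusted p under 0.001 in control, 39 had the same sign in arsenite and 22 of these a p under 0.05 (52.4%, against 5.62% of all genes with the same criterion). Of 22 genes chosen in arsenite, 20 had the same sign in control and 15 a p under 0.05 (68.2%, against 7.61% of all genes). The limit set for this description was an unadjusted p under 0.01, and the shares were lower there. At that limit 71 of 253 genes chosen in control met both criteria in arsenite (28.1%). Of 116 chosen in arsenite, 47 met both in control (40.5%). For genes chosen at a p under 0.05 the shares were 17.7% and 24.2%. Over all genes 63% had the same sign, and Pearson's r across the 8825 genes was 0.367. Genes are not independent replicates, and the libraries share gene length and base composition. Of the 86 genes past the adjusted p, 77 had all Y396E libraries on the same side of all S181E libraries in both treatments, against 3.59% of all tested genes. This last count uses the libraries that chose the genes.

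**Figure D5:**
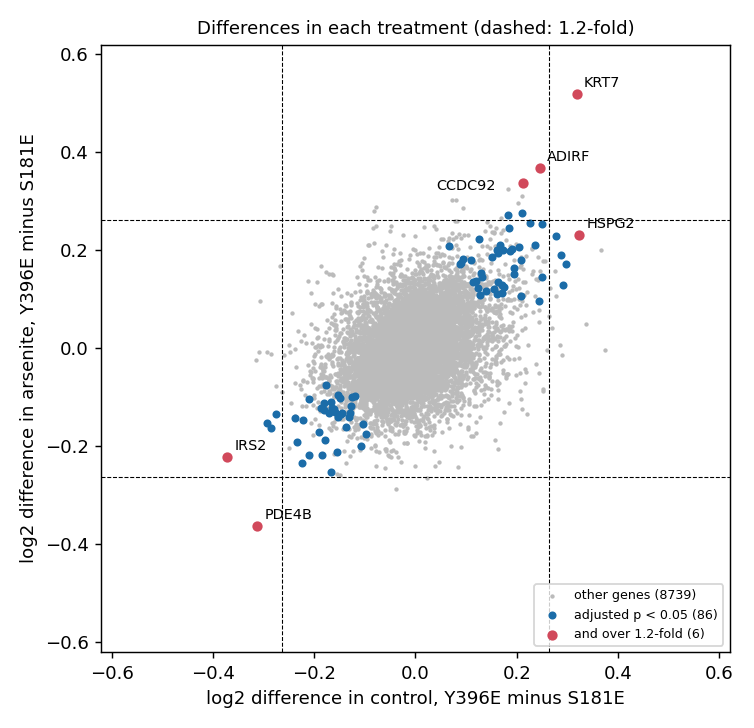
Each point is a gene, with the log2 difference (Y396E minus S181E) in control on the horizontal and in arsenite on the vertical axis. The 86 genes past the adjusted p lie in the lower left and upper right, KRT7 furthest out at 0.32 and 0.52, and the other genes gather around 0.

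Gene length and base composition moved with the direction of the difference. The 47 genes higher in Y396E had a median exon length of 1909 nt and a GC content of 57.4%, and the 39 lower genes 6363 nt and 42.7%, against 3905 nt and 48.1% for all tested genes. Across the 8825 genes Pearson's r of the log2 difference was -0.343 with log2 length and 0.28 with GC content, as a description. A correction for both, added after the data had been seen, left 51 genes past the adjusted p, of which 38 were among the 86, and 6 called genes, of which 5 were among the 6. ADIRF then stood at 0.23 with an adjusted p of 1.32e-05, under the fold threshold, and AGPAT4 was called in its place. The part of length and base composition in single differences was not otherwise tested.

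Cytosolic ribosomal protein genes, which are short, leaned to higher levels in Y396E without any one passing. Of 78 tested members 77 had a positive log2 difference and 0 passed the adjusted p in edgeR's quasi-likelihood test, while 35 had an unadjusted p under 0.05, a criterion met by 13.4% of all tested genes. DESeq2 passed 3, and 4 passed without Y396E control replicate 3. Over all tested genes these settings passed 159 of 8825 and 226 of 9191. For the 78 members, the following values are log2 differences. Their median was 0.06, 0.03 under library totals (69 positive) and 0.03 after the correction for length and GC content, and RPL29, a protein of the large subunit, stood highest at 0.10. All 78 intervals lay within 1.2-fold, the widest reaching 1.13-fold.

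Transcripts of the mitochondrial genome had a positive log2 difference in all 13 cases, with a median of 0.20. Of the 13, 1 passed, where 0.975% of all tested genes did. Without Y396E control replicate 3, 10 passed, without a filter on low levels 11, and with DESeq2 0. Over all tested genes these settings passed 226 of 9191, 187 of 16081 and 159 of 8825. MT-CYB, the cytochrome b of complex III, had 10500, 9750 and 8670 CPM in S181E control and 13500, 11500 and 10400 CPM in Y396E control, which overlapped. In arsenite it had 6250 to 7390 against 7480 and 8360 CPM, without overlap, as did 26.7% of all tested genes. Its log2 difference was 0.24 ± 0.05 with an adjusted p of 0.0155, which rose to as much as 0.0701 when 1 library was left out. The list median ranged from 0.11 without Y396E control replicate 1 to 0.25 without Y396E control replicate 3. Mitochondrial transcripts made up 11.7% to 14.3% of counts in S181E control and 12.3% to 17.1% in Y396E control libraries, ranges that overlapped, and the third replicate was the lowest of its group in both mutants and both treatments. Only 3 of the 13 intervals lay within 1.2-fold.

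Across the lists of stress response genes 1 gene passed the adjusted p, where 0.975% of all tested genes did. Of 23 tested heat shock genes 0 passed, and 5 had a positive log2 difference with a median of -0.04. HSPH1, an HSP110 chaperone, stood lowest at -0.12 ± 0.03 (adjusted p = 0.0667), and HSPA1B, an inducible HSP70 whose near-identical copy makes its count uncertain, had an interval of 0.956-fold to 1.09-fold. Of 23 tested NRF2 targets, the antioxidant genes, 1 passed. GCLM, a subunit of the enzyme that makes glutathione's precursor, was lower by 0.16 ± 0.04, with all 5 Y396E libraries below the S181E libraries of their treatment, and passed without 4 of the 11 libraries in turn. HMOX1, the heme oxygenase, had 19.4 to 20.6 CPM in S181E control against 19.1, 19.2 and 21 CPM in Y396E control, and 40.2 to 40.9 against 41.3 and 41.2 CPM in arsenite. None of 26 immediate-early genes, 30 ATF4 targets or 4 genes of metal handling passed, with medians of 0.00, -0.02 and 0.02. Counts of 0 here are those of edgeR's quasi-likelihood test. Unadjusted p-values under 0.05 numbered 7 among heat shock genes, 8 among NRF2 targets (4 in each direction), 4 among immediate-early genes, 7 among ATF4 targets and 0 among metal genes, against 13.4% of all tested genes.

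Cholesterol synthesis and cell cycle lists, whose medians were away from 0 in both mutants against WT, had medians near 0 between the mutants. Cholesterol synthesis genes had a median log2 difference of 0.01 over 23 genes, none with an unadjusted p under 0.05, while their medians against WT were -0.59 in S181E and -0.58 in Y396E. HMGCS1, the HMG-CoA synthase, had 26.9 to 27.6 CPM in S181E control and 26.2 to 27.8 CPM in Y396E control, and its interval was 0.946-fold to 1.06-fold. Genes of the cell cycle had a median of -0.05, with 5 of 32 positive, and medians against WT of 0.30 and 0.29. MCM4, a subunit of the replicative helicase, was the 1 of the 32 that passed, at -0.14 ± 0.04 (adjusted p = 0.0451). Of all tested genes 0.975% passed. Stress granule proteins had a median of -0.03, with 2 of 27 positive, and LARP4, a poly(A)-binding factor, passed at -0.13 ± 0.03 (adjusted p = 0.0489). After the correction for length and GC content 11 of the 27 were positive with a median of -0.01, and with the left-out library 8 were positive, and 0 passed in either (LARP4 adjusted p = 0.128 and 0.254). G3BP1, the core granule scaffold, had a log2 difference of -0.06 ± 0.03. MCM4 and LARP4 each passed without only 1 of the 11 libraries in turn.

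Genes that stood furthest above WT in both mutants had smaller differences between the mutants. VSNL1, a neuronal calcium sensor, had 15.2 to 16 CPM in S181E control and 12.5 to 14.2 CPM in Y396E control, and 15.6 to 16.6 against 13 and 14.3 CPM in arsenite, without overlap, while WT libraries had 1.9 to 2.63 CPM. Its log2 difference was -0.23 ± 0.06 (adjusted p = 0.0404), and it passed without only 1 of the 11 libraries in turn. ZBED2, a transcription factor, and SYTL2, a vesicle tethering protein, had log2 differences of 0.15 ± 0.05 and 0.13 ± 0.04 with adjusted p of 0.134 and 0.0979, against log2 differences from WT of 2.26 to 2.78 in the mutants. The single parental libraries, control and arsenite, had 16.9 and 17.5 CPM of VSNL1, 46.9 and 14.6 CPM of ZBED2 and 10.7 and 21.5 CPM of SYTL2. Each was above the WT libraries of the same treatment. KLK5, HTR7 and MKX did not reach the CPM minimum.

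Chromosome medians of the log2 difference lay between -0.03 and 0.02 for the nuclear chromosomes. On chromosome 8 the 299 tested genes had a median of -0.01, although their median against WT was -0.43 in each mutant. This lower median on chromosome 8, which the mutants share, and the effect of either substitution cannot be told apart in comparisons with WT. How much of the chromosome it covers was not examined here. It was not a feature of the difference between the mutants.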

How the data were processed

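The authors aligned single reads of poly(A) libraries to hg38 with STAR 2.7.11b and counted them per gene with featureCounts. The deposited files hold unnormalized read counts for each gene, made with GENCODE release 46 and strand setting 2 per the file headers. Symbols, biotypes and exon lengths came from GENCODE release 44, to which 62541 of 63086 identifiers matched. Groups and replicate numbers came from the sample labels. Total counts of the 11 libraries compared were 22508145 to 50834401.

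Protein-coding genes with more than 10 CPM in at least 6 libraries were fitted with edgeR 4.0.16 (glmQLFit and glmQLFTest, TMM scaling) under R 4.3.3, with treatment and mutant as terms and 8 residual degrees of freedom. Contrasts within treatments and the interaction came from a fit with 1 mean per group. Benjamini-Hochberg adjustment ran over all tested genes. The standard error is a Wald standard error from the fitted weights and the moderated quasi-dispersion, and intervals are 95%. The common biological coefficient of variation was 0.0406. The script was tested on simulated data. Replicates differed beyond counting noise in every pair (chi-square per degree of freedom of at least 2.67), and no libraries were merged.

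Named genes were IGF2BP1 and its paralogs, every called gene, the 8 smallest p in each direction, the leading genes against WT and the extremes of each list. The libraries compared, the lists and this rule were chosen with earlier results of these data known. Alternatives were RLE size factors, library totals, 2 looser filters, all gene types, DESeq2 1.42.0, limma 3.58.1 (voom), a replicate block, 23 libraries, the left-out library included and leaving out each library. The correction for length and GC content, and the counts without a fold threshold and list medians under each alternative, were added after the data had been seen. The immunoprecipitation libraries were not analysed here. Results for some genes that the rule or the lists would name are not reported here.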

Additional observations from a re-analysis of the deposited data

How the results depend on the processing

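The 6 genes called over both treatments became 12 with a minimum of 1 CPM in 3 libraries, 29 without a filter, 1 with the left-out Y396E arsenite library and 86 without the fold threshold, and 3 to 21 when single libraries were left out. The 1 called in control became 2, 15, 6 with DESeq2, 12 with the replicate block, 0 with the left-out library and 2 without the fold threshold, and 0 to 41 without single libraries. The 3 called in arsenite became 1 with RLE size factors, library totals, all gene types, 23 libraries or the length and GC correction, 9 without a filter and 0 with the left-out library, and 1 to 4 without single libraries. The 0 of the interaction became 3 without a filter and 0 to 1 without single libraries. The 86 genes past the adjusted p became 187 without a filter, 159 with DESeq2, 154 with the replicate block, 1 with the left-out library, 20 with 23 libraries and 51 with the length and GC correction, and 21 to 226 without single libraries. The causes of these changes were not tested, apart from the fold threshold and filters, which change the genes counted.

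The replicate numbers were not taken as pairs. Deviations of S181E and Y396E libraries with the same number had correlations across genes of 0.0763, 0.1 and 0.131 in control and 0.201 and 0.139 in arsenite. Each library had its highest correlation with a library of its own number. Between single groups this did not always hold. S181E control replicate 1 correlated at 0.0261 with S181E arsenite replicate 1 and at 0.0534 with S181E arsenite replicate 2. With the replicate block 5 genes were called over both treatments, 3 in arsenite and 0 for the interaction. With it 9 of 13 mitochondrial transcripts passed the adjusted p, against 1 without it. Over all tested genes 154 of 8825 passed with the block. The share of intervals within 1.2-fold was lowest without a filter, at 9744 of 16081 (60.6%, against 97.6% in the main fit). It was highest with the length and GC correction, at 8673 of 8825. With the left-out library it was 7234 of 9122. The median absolute log2 difference was 0.04 to 0.07 over the alternatives. No named gene that had passed changed sign. Depth limits the bound for genes under the CPM minimum: without a filter 3706 of 16081 intervals reached beyond 2-fold.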

Other observations

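Genes under the CPM minimum held larger differences, and those named here were chosen after their values were seen. CLIC3, a chloride intracellular channel protein, had 8.3, 7.96 and 7.29 CPM in S181E control and 9.24, 10.9 and 11.3 CPM in Y396E control. In arsenite it had 6.01, 7.54 and 6.65 CPM in S181E and 11.5 and 10.6 CPM in Y396E, so every Y396E library lay higher. Its log2 difference was 0.54 ± 0.08 (edgeR quasi-likelihood adjusted p = 7.34e-05, with a minimum of 1 CPM in 3 libraries). SEMA3A, a secreted guidance cue, had 1.67 to 1.79 CPM in S181E control and 1.21 to 1.31 in Y396E control, and 2.98 to 3.53 against 1.72 and 2 CPM in arsenite. Its log2 difference was -0.66 ± 0.14 (adjusted p = 0.015). TMEM132B, a transmembrane protein, had 9 to 40 counts in an S181E library and 32 to 72 in a Y396E library used, with overlap in arsenite and a log2 difference of 0.95 ± 0.22 (adjusted p = 0.0287).

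Near KRT7 on chromosome 12, 2 hair keratin genes of low level were also higher in Y396E in the test without a filter. KRT86 (52274645 to 52309163 in hg38) had 9 to 15 counts in an S181E library and 18 to 41 in a Y396E library used, with a log2 difference of 1.22 ± 0.28 (adjusted p = 0.00314). KRT81 (52285913 to 52291534, other strand) had a log2 difference of 0.53 ± 0.16 (adjusted p = 0.0473). Their sequences are nearly alike, so the split of reads between them is uncertain. KRT80, on the other side of KRT7, had a log2 difference of 0.14 with an adjusted p of 0.141. ATG101 and NR4A1, further out, had log2 differences of -0.02 and 0.03.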
